A study of Homo sapiens with 9 samples.

Results

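The insulin-like growth factor (IGF) axis is described here through 10 genes, the binding proteins IGFBP2, IGFBP3, IGFBP4, IGFBP5, IGFBP6 and IGFBP7, the ligand IGF2, the receptor IGF1R and the adaptors IRS1 and IRS2. They were taken by symbol from a table of 61209 genes, and 9 of the 10 were among the 16976 genes that passed the filter on low counts. The libraries are polyA RNA of GIST-T1 cells, an established human line of gastrointestinal stromal tumor (GIST) that grows on a mutated KIT kinase. One group was transfected with siRNA against ESRRA, the gene of estrogen-related receptor alpha (siERRα), one with a non-target siRNA and 50 nM imatinib, an inhibitor of KIT (imatinib), and one with the non-target siRNA alone (siNC). Each group holds 3 libraries harvested at 48 h, so that every group had been transfected, no knockdown library had received the drug, and 1 cell line stands for GIST.

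IGF1 and IGF2 are secreted ligands that bind the tyrosine kinase receptor IGF1R, and the insulin receptor INSR also binds IGF2. The activated receptors phosphorylate IRS1 and IRS2, which recruit PI3K and so lead to AKT, mTOR and the FOXO transcription factors. IGFBP1 to IGFBP6 bind the ligands outside the cell with high affinity, IGFBP7 binds them only weakly, and proteases that cut the binding proteins set the ligands free.

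ESRRA stood at 1.40, 0.757 and 1.34 CPM (read counts scaled to the size of the library, with TMM factors) in siERRα libraries, against 40.7, 44.7 and 40.9 CPM in siNC libraries. In imatinib libraries ESRRA had 30.4, 32.0 and 35.6 CPM, a log2 fold change of −0.37 against siNC (adjusted p = 0.00383, edgeR quasi-likelihood test). Library totals ran from 37527236 to 49363002 counts. All 8 GIST identity genes averaged over 1 CPM, and KIT lay between 1275 and 1477 CPM with siERRα, between 1452 and 1630 CPM with imatinib and between 1272 and 1328 CPM in siNC. The markers of other cells included 5 leukocyte, 3 endothelial and 3 hepatocyte genes. None of these averaged 1 CPM in any group, except the endothelial gene CDH5 with imatinib. CDH5 had 1.92, 1.40 and 1.18 CPM with imatinib, 0.797, 0.610 and 0.824 CPM with siERRα and 0.716, 0.534 and 0.853 CPM in siNC. Each of these lists summed to at most 3.01 CPM in any library. Among 5 epithelial genes KRT8 and KRT18 averaged over 1 CPM in each group while EPCAM stayed at or under 0.229 CPM, and among 4 genes of mature smooth muscle CNN1 and SMTN did while DES stayed at or under 0.063 CPM. The epithelial list summed to 280 to 303 CPM with siERRα, 193 to 223 CPM with imatinib and 302 to 315 CPM in siNC, and the smooth muscle list to 206 to 229, 118 to 147 and 173 to 199 CPM in the same groups. KRT18 and SMTN gave most of these sums, and their part in the results was not tested. Mitochondrial genes took 0.943% to 1.03% of counts with siERRα, 1.48% to 1.54% with imatinib and 0.846% to 0.989% in siNC. In these bulk libraries fewer cells that express a gene and less RNA per cell cannot be told apart.

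IGF2 was the abundant ligand of T1 cells, and IGFBP3 the leading binding protein. IGF2 averaged 4879 ± 463 CPM with siERRα, 6248 ± 448 CPM with imatinib and 5120 ± 316 CPM in siNC (SD, n = 3 each), which placed it at rank 5, 6 and 4 of all 61209 genes by CPM. IGF1, the other ligand, never had more than 1 count in a library, and IGFBP1, the neighbour of IGFBP3 on chromosome 7 with a gap of 18.6 kb, likewise never had more than 1. To compare genes, CPM were divided by the length of all annotated exons in kb, a scale that understates genes whose long exons are not used. In siNC the order was IGF2 at 716, IGFBP3 at 279, IGFBP7 at 107, IGFBP5 at 84.3, IGFBP2 at 45.1, IGFBP4 at 16.1, IRS1 at 7.51, IGFBP6 at 4.94, IGF1R at 0.160 and IRS2 at 0.0260 CPM per kb. No neighbours in this order had ranges that met across the 3 siNC libraries. With siERRα the order was the same, except that the ranges of IRS1 (4.79 to 5.86 CPM per kb) and IGFBP6 (4.42 to 4.91 CPM per kb) met. With imatinib IGFBP5, at 126 CPM per kb, stood above IGFBP7, at 109 CPM per kb, and their ranges did not meet.

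**Figure D1:**
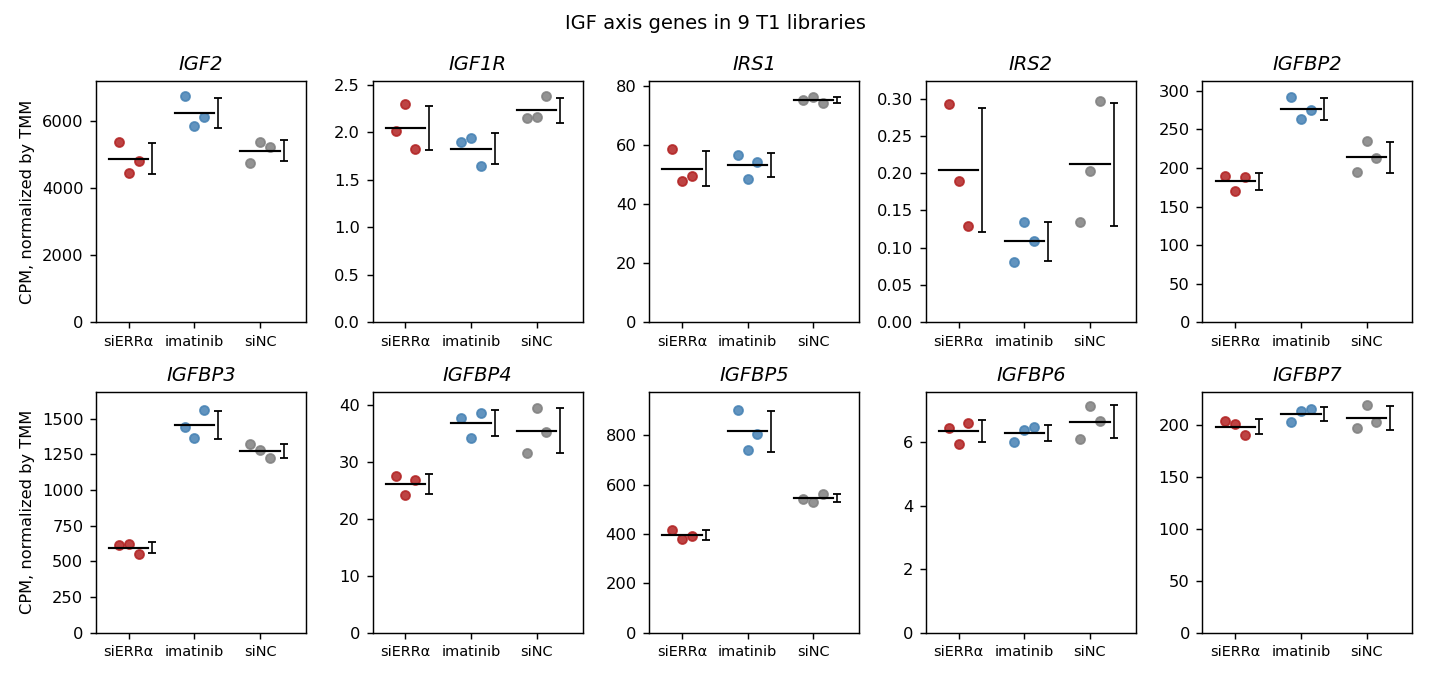
CPM (normalized by TMM, linear axis from 0) of the 10 IGF axis genes, with 1 point per library, a line at the group mean and an error bar of 1 SD to the right of each group (n = 3). IGFBP3 lies between 550 and 622 CPM with siERRα, under every imatinib and siNC library, and IGFBP5 lies between 739 and 904 CPM with imatinib, above every other library.

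IGF2, the fetal growth factor gene on chromosome 11 (GRCh38, 2129112 to 2158391, minus strand), had 5374, 4455 and 4809 CPM with siERRα, 6742, 5867 and 6134 CPM with imatinib and 4764, 5368 and 5227 CPM in siNC. All imatinib libraries lay above all others, while siERRα and siNC overlapped. IGF2 rose by a log2 fold change of 0.29 with imatinib against siNC (adjusted p = 0.00265, edgeR quasi-likelihood test with Benjamini-Hochberg adjustment, as for every adjusted p here). After knockdown its log2 fold change against siNC was −0.07 with a 95% interval from −0.22 to 0.08 (adjusted p = 0.529). In the direct comparison IGF2 was lower with siERRα than with imatinib by a log2 fold change of −0.36 (adjusted p = 2.69e-04). IGF2 shares its locus with the antisense gene IGF2-AS, whose counts were 1.04% to 1.24% of those of IGF2 in every library, and with the read-through gene INS-IGF2, which is listed at 0 in all 9. The strand setting of the counting is not given in the sources used here, so reads of IGF2 and IGF2-AS cannot be told apart where they overlap. H19, the imprinted noncoding RNA 125 kb from IGF2, averaged 1184 CPM with siERRα, 1529 CPM with imatinib and 1296 CPM in siNC, and its log2 fold changes were 0.24 with imatinib (adjusted p = 0.00298) and −0.13 with siERRα (adjusted p = 0.124), both against siNC.

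IGF1R, the receptor for both ligands (chromosome 15, 98648539 to 98964530, plus strand), was scarce, with 96, 109 and 71 counts in siERRα libraries, 70, 72 and 60 counts in imatinib libraries and 96, 85 and 120 counts in siNC libraries. These are 1.83 to 2.29 CPM with siERRα, 1.64 to 1.94 CPM with imatinib and 2.15 to 2.38 CPM in siNC. The imatinib libraries lay under the siNC libraries without overlap, but the log2 fold change of −0.29 did not pass the test (95% interval −0.63 to 0.05, adjusted p = 0.161). The knockdown interval of −0.45 to 0.20 (adjusted p = 0.627) leaves room for a moderate difference in either direction at this depth.

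INSR, the insulin receptor gene, stood above IGF1R per kb of exon, at 0.755 CPM per kb with siERRα, 1.90 with imatinib and 0.963 in siNC, where IGF1R had 0.147, 0.131 and 0.160. It had 7.69, 9.09 and 7.75 CPM with siERRα, 20.5, 20.6 and 20.7 CPM with imatinib and 11.3, 11.1 and 8.93 CPM in siNC. INSR rose with imatinib by a log2 fold change of 0.98 (adjusted p = 1.38e-07) and fell after knockdown by 0.35 on the log2 scale (adjusted p = 0.0161), although siERRα library 2 lay above siNC library 3. Between siERRα and imatinib the log2 fold change was −1.33 (adjusted p = 1.57e-09). IGF2R, which takes up and clears IGF2, averaged 576 ± 23.4 CPM with siERRα, 603 ± 56.3 CPM with imatinib and 583 ± 15.5 CPM in siNC (SD, n = 3 each), with overlap among all groups and no call in any comparison.

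IRS1, the adaptor that couples the receptors to PI3K (chromosome 2, 226731312 to 226799820, minus strand), was lower in both treated groups. It stood at 58.7, 48.0 and 49.4 CPM with siERRα, 56.5, 48.7 and 54.3 CPM with imatinib and 75.2, 76.3 and 74.2 CPM in siNC. No treated library reached the lowest siNC library, and the siERRα and imatinib libraries overlapped. IRS1 fell by 0.53 on the log2 scale after knockdown (standard error 0.0757, adjusted p = 3.75e-05) and by 0.50 with imatinib (standard error 0.0760, adjusted p = 3.03e-05), 2 comparisons that share the siNC libraries. Directly compared, siERRα and imatinib differed by −0.03 with a 95% interval from −0.19 to 0.13 (adjusted p = 0.762). IRS2, the second adaptor (chromosome 13, 109752695 to 109786583, minus strand), had only 14, 9 and 5 counts in siERRα libraries, 3, 5 and 4 counts in imatinib libraries and 6, 8 and 15 counts in siNC libraries. It did not pass the filter, and in a fit without the filter its log2 fold change was −0.05 after knockdown (adjusted p = 1) and −0.97 with imatinib (adjusted p = 0.331). At these counts a change of IRS2 was not detectable.

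IGFBP3 had the largest log2 fold change of the 9 members tested after knockdown, and IGFBP5 with imatinib. IGFBP3, the main IGF carrier of blood (chromosome 7, 45912245 to 45921874, minus strand), had 618, 622 and 550 CPM with siERRα, 1444, 1367 and 1558 CPM with imatinib and 1321, 1278 and 1226 CPM in siNC. No groups overlapped, and the siERRα libraries stood far under the others. IGFBP3 averaged 597 ± 40.4 CPM with siERRα, 46.8% of the mean of 1275 ± 48.0 CPM in siNC (n = 3 each, ± SD). It thus fell by 1.10 on the log2 scale (standard error 0.0620, adjusted p = 3.66e-10). With imatinib it rose by 0.19 on that scale (adjusted p = 0.0169). This imatinib call was lost with library totals alone as scaling (0.13, adjusted p = 0.0864), without imatinib library 3 (0.14, adjusted p = 0.106) and without siNC library 3 (0.16, adjusted p = 0.0857). Between siERRα and imatinib the log2 fold change of IGFBP3 was −1.29 (standard error 0.0623, adjusted p = 6.86e-12).

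IGFBP5, known as a binding protein of bone and muscle that also attaches to extracellular matrix (chromosome 2, 216672105 to 216695549, minus strand), had 418, 380 and 392 CPM with siERRα, 904, 739 and 806 CPM with imatinib and 544, 529 and 562 CPM in siNC. The 3 groups did not overlap, with siNC in the middle. IGFBP5 fell after knockdown by 0.46 on the log2 scale (standard error 0.0654, adjusted p = 3.75e-05) and rose with imatinib by 0.58 (standard error 0.0653, adjusted p = 8.28e-07). The direct log2 fold change of siERRα over imatinib was −1.04 (standard error 0.0659, adjusted p = 2.10e-10).

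IGFBP2, a binding protein abundant in fetal tissue and many tumors, lies next to IGFBP5 on chromosome 2 (216632828 to 216664436, plus strand) in the opposite orientation, with 7.67 kb between them. It had 190, 170 and 188 CPM with siERRα, 292, 264 and 275 CPM with imatinib and 194, 235 and 213 CPM in siNC. The order of the groups was that of IGFBP5, but the highest siERRα library came within a few CPM of the lowest siNC library. IGFBP2 rose with imatinib by a log2 fold change of 0.37 (adjusted p = 2.09e-04) and fell after knockdown by 0.23 on the log2 scale (adjusted p = 0.0190). The knockdown call of IGFBP2 rested on siNC library 2, without which the log2 fold change was −0.16 (adjusted p = 0.110). Between siERRα and imatinib its log2 fold change was −0.60 (adjusted p = 5.10e-07).

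IGFBP4, which inhibits IGF action and is the classic substrate of the protease PAPP-A (chromosome 17, 40443450 to 40457725, plus strand), had 27.4, 24.1 and 26.7 CPM with siERRα, 37.6, 34.2 and 38.5 CPM with imatinib and 31.6, 39.5 and 35.2 CPM in siNC. The siERRα libraries lay under all others, and the imatinib libraries lay within the range of siNC. IGFBP4 fell after knockdown by 0.44 on the log2 scale (standard error 0.0830, adjusted p = 6.26e-04), and with imatinib the log2 fold change was 0.05 (95% interval −0.12 to 0.23, adjusted p = 0.629).

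IGFBP6, which prefers IGF2 over IGF1 (chromosome 12, 53097436 to 53102345, plus strand), had 6.46, 5.95 and 6.61 CPM with siERRα, 5.99, 6.39 and 6.48 CPM with imatinib and 6.11, 7.15 and 6.67 CPM in siNC. IGFBP7, the weak binder that also binds insulin and is secreted by vessels and stroma (chromosome 4, 57030773 to 57110385, minus strand), had 203, 201 and 190 CPM with siERRα, 203, 213 and 215 CPM with imatinib and 197, 219 and 203 CPM in siNC. All groups overlapped for both genes. Neither passed the test in any comparison, and for IGFBP7 the 95% interval was −0.18 to 0.06 after knockdown and −0.09 to 0.15 with imatinib on the log2 scale.

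**Figure D2:**
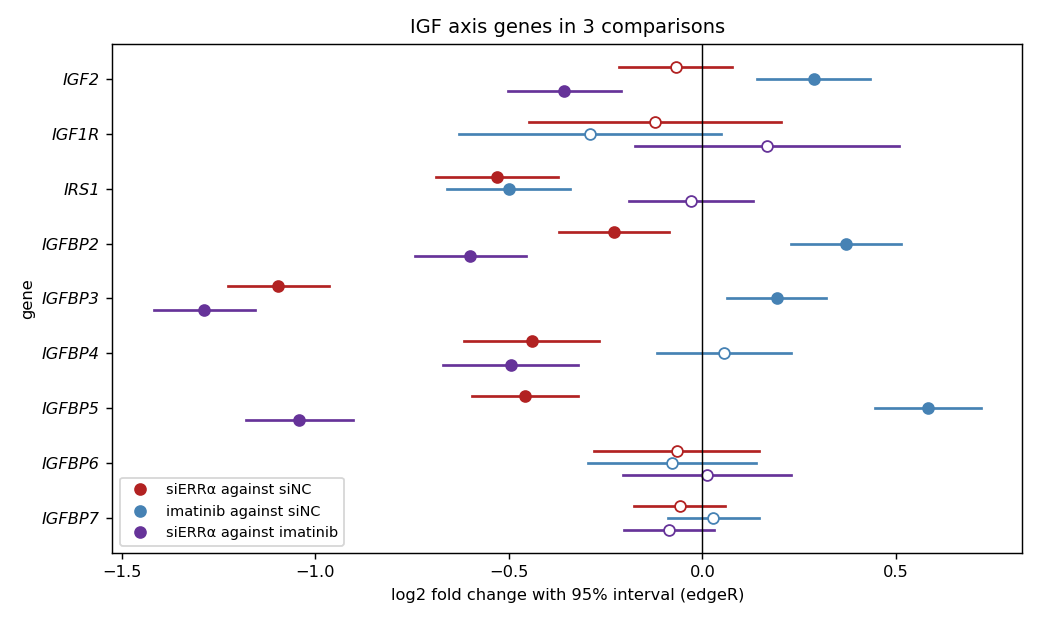
Log2 fold change (point) with its 95% interval (line) of the 9 IGF axis genes tested, in 3 comparisons, from edgeR. Filled points have an adjusted p under 0.05. The siERRα points of IGFBP2, IGFBP3, IGFBP4, IGFBP5 and IRS1 lie left of 0, and those of IGFBP2, IGFBP3, IGFBP5 and IGF2 with imatinib lie right of 0.

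Counted over the genes tested, 5 of 9 members were lower and 0 higher after knockdown against siNC, where 23.9% of all genes tested were called and 12.6% were called lower. With imatinib against siNC 4 were higher and 1 lower, where 41.7% of all genes were called, 21.4% as higher and 20.3% as lower. When only library totals were used for scaling, that split of all genes turned from 3627 higher and 3445 lower to 2974 higher and 4403 lower. No member was higher after knockdown at an unadjusted p under 0.05 either, nor by DESeq2 or limma-voom. For siERRα against imatinib 5 of 9 (55.6%) were called, all lower, where 52.2% of all genes were called, 25.6% as higher and 26.6% as lower. The median log2 fold change of the 9 was −0.23 after knockdown, where the median of all genes tested was 0.0085. It was 0.05 with imatinib, where that of all genes was 0.0023, and −0.36 for siERRα against imatinib, where that of all genes was −0.0045. A log2 fold change of at least 0.5 in size together with a call was reached by 2 members after knockdown (IGFBP3 and IRS1), where 7.26% of all genes reached it, by 2 with imatinib (IGFBP5 and IRS1), where 17.6% did, and by 3 between siERRα and imatinib (IGFBP2, IGFBP3 and IGFBP5), where 26.3% did.

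IGFBP3 held a smaller share of the binding protein messages in every siERRα library than in any other. Per kb of exon, IGFBP3 made up 37.3%, 38.9% and 35.8% of IGFBP2 to IGFBP7 together in siERRα libraries, 49.1%, 49.9% and 51.9% in imatinib libraries and 54.0%, 51.1% and 51.0% in siNC libraries. IGFBP7, whose level did not pass the test, made up 29.3% ± 0.354 with siERRα, 17.2% ± 1.06 with imatinib and 19.9% ± 0.841 in siNC (SD, n = 3 each). The sum of the 6 binding proteins was 350 ± 13.2 CPM per kb with siERRα, 634 ± 30.4 with imatinib and 536 ± 11.0 in siNC (SD, n = 3 each). IGF2 messages per binding protein message, on the same scale, came to 2.07, 1.78 and 2.00 with siERRα, 1.46, 1.37 and 1.31 with imatinib and 1.25, 1.37 and 1.39 in siNC. All siERRα libraries had a higher ratio than all others, while imatinib and siNC overlapped. No test was run on these shares and ratios, which follow from the levels above.

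**Figure D3:**
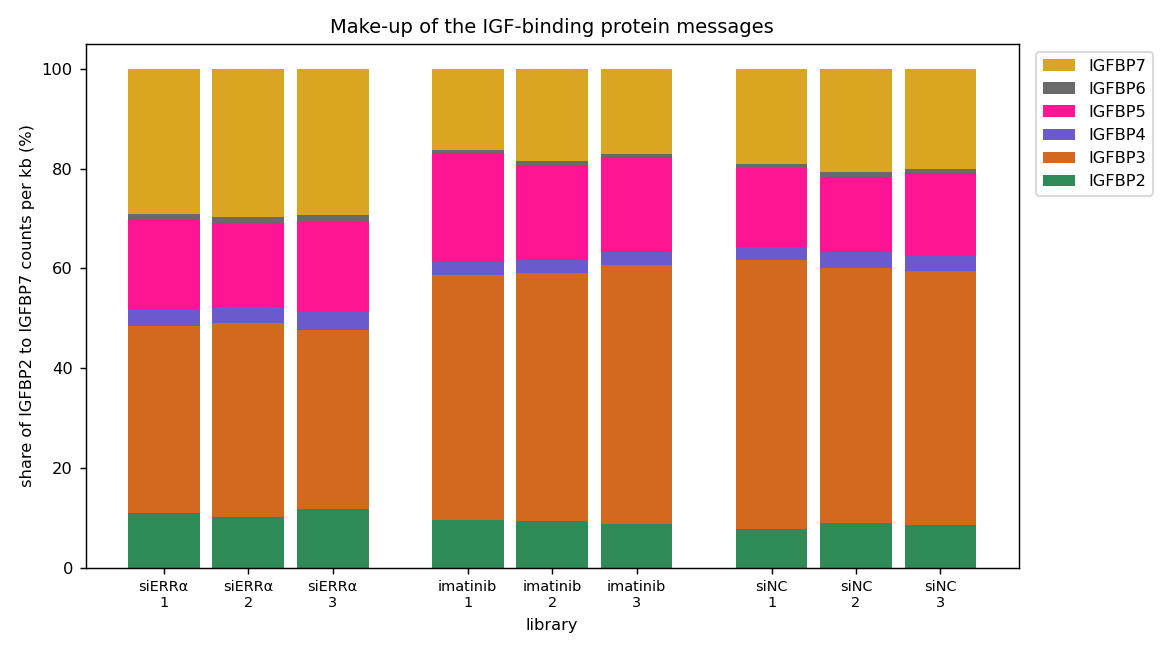
Share in percent of each of 6 binding protein genes in the summed counts per kb of exon of IGFBP2 to IGFBP7, in each of the 9 libraries (stacked bars from 0 to 100). IGFBP3 takes 35.8% to 38.9% with siERRα, less than in any imatinib or siNC library, where it takes 49.1% to 54.0%.

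Other genes linked to the ligand and its carriers were read from lists of the pathway. The list nearest to the members holds 12 further ligand, receptor and carrier genes and neighbours of IGF2, and 5 of these were tested, the protein-coding INSR, IGF2R and IGFBPL1 and the noncoding H19 and IGF2-AS. Of the 5, 1 was lower after knockdown (INSR), where 23.9% of all genes were called, and 4 were higher with imatinib (INSR, IGFBPL1, H19 and IGF2-AS), where 41.7% were called and 21.4% called higher. IGFBPL1, a secreted protein with an IGFBP-like domain, had 2.01, 2.08 and 2.14 CPM with siERRα, 5.26, 5.50 and 4.26 CPM with imatinib and 2.44, 2.93 and 2.60 CPM in siNC. It rose with imatinib by a log2 fold change of 0.92 (adjusted p = 2.75e-05), and all imatinib libraries lay above the others.

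Of 12 genes listed as proteases of binding proteins or as inhibitors of such proteases, 7 were tested. Being listed does not show that each protease cuts a binding protein. With imatinib all 7 were called, 4 higher and 3 lower (41.7% of all genes called), and after knockdown 2 were higher and 1 lower (23.9% of all genes). PAPPA2, a metalloprotease that cuts IGFBP3 and IGFBP5, had 25.2, 30.1 and 29.4 CPM with siERRα, 20.2, 20.2 and 17.8 CPM with imatinib and 13.4, 11.7 and 12.6 CPM in siNC. The 3 groups of PAPPA2 did not overlap, and it rose by a log2 fold change of 1.17 after knockdown (adjusted p = 1.21e-08) and of 0.63 with imatinib (adjusted p = 1.23e-05). HTRA1, a secreted serine protease that can cut IGFBP5, had 1.36, 1.66 and 1.44 CPM with siERRα, 6.86, 6.82 and 6.39 CPM with imatinib and 1.88, 1.83 and 2.26 CPM in siNC. HTRA1 rose by a log2 fold change of 1.74 with imatinib (adjusted p = 7.62e-09), while after knockdown it had −0.42 (adjusted p = 0.0535). CTSD, the lysosomal aspartic protease cathepsin D, averaged 68.9 CPM with siERRα, 144 CPM with imatinib and 75.0 CPM in siNC, a log2 fold change of 0.94 with imatinib (adjusted p = 2.43e-09). PRSS23, a secreted serine protease, averaged 30.4 CPM with siERRα, 74.8 CPM with imatinib and 59.3 CPM in siNC and fell after knockdown by 0.96 on the log2 scale (adjusted p = 2.80e-08). STC1, a stanniocalcin that blocks PAPP-A, averaged 7.52 CPM with siERRα, 2.95 CPM with imatinib and 5.89 CPM in siNC, and it rose after knockdown (log2 fold change 0.36, adjusted p = 0.0251) and fell with imatinib (adjusted p = 3.01e-06). PAPPA, the gene of PAPP-A itself, was near the floor and not among the genes tested. It averaged 0.0715 CPM with siERRα, 0.298 CPM with imatinib and 0.108 CPM in siNC.

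Of 8 genes that act on IGF2 transcription or bind its mRNA 7 were tested. With imatinib, where IGF2 rose, 5 of these were lower (20.3% of all genes called lower), and after knockdown 1 was higher and 1 lower (23.9% of all genes called). HMGA2, a fetal chromatin protein known to act upstream of PLAG1 and IGF2, had 475, 491 and 479 CPM with siERRα, 212, 211 and 229 CPM with imatinib and 436, 415 and 440 CPM in siNC. No groups of HMGA2 overlapped, and its log2 fold change was −0.99 with imatinib (adjusted p = 7.01e-11) and 0.16 after knockdown (adjusted p = 0.0282). HMGA1, a related chromatin protein, fell with imatinib by 1.19 on the log2 scale (adjusted p = 1.22e-08), to 16.5 CPM against 37.6 CPM in siNC. IGF2BP3, which binds IGF2 mRNA, fell with imatinib by 0.91 on the log2 scale (adjusted p = 9.63e-08), to 9.49 CPM against 17.8 CPM in siNC. PLAG1, a zinc finger activator of IGF2, averaged 1.06 CPM with siERRα, 0.843 CPM with imatinib and 1.72 CPM in siNC, with log2 fold changes of −0.71 after knockdown (adjusted p = 0.0420) and −1.04 with imatinib (adjusted p = 0.00345).

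**Figure D4:**
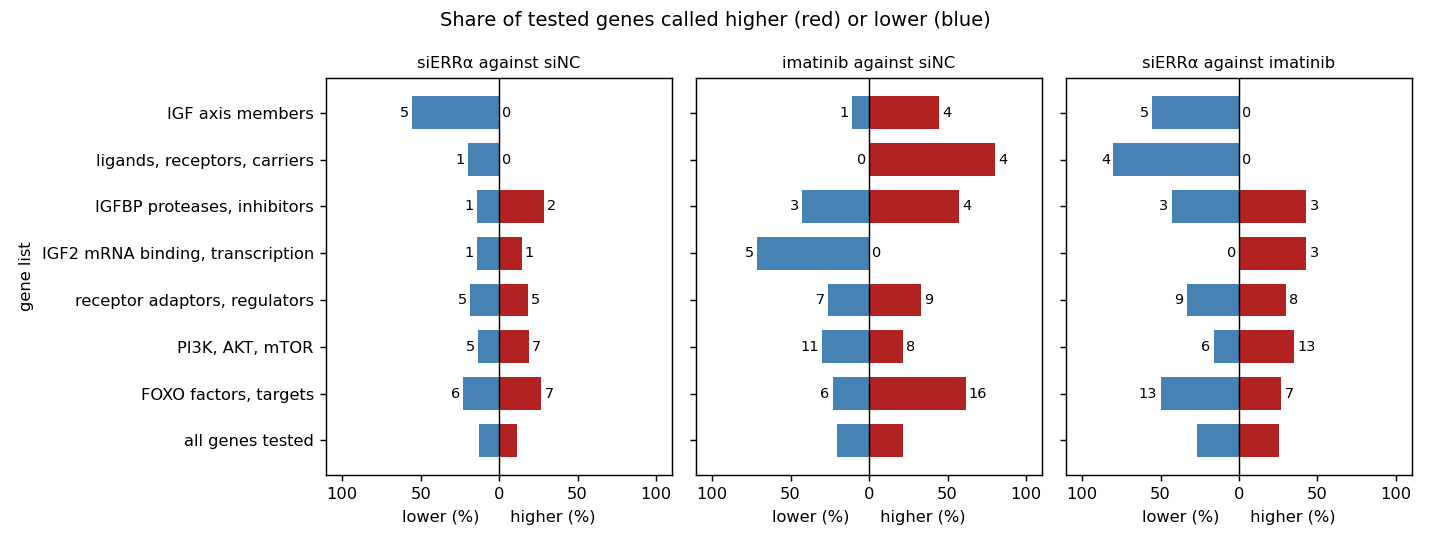
Share in percent of the tested genes of each list called higher (red, to the right) or lower (blue, to the left) at an adjusted p under 0.05, with the number of genes beside the bars, in 3 comparisons. The lowest bars give all 16976 genes tested. With imatinib 16 genes of the FOXO list were higher and 6 lower, and 5 genes of the IGF2 mRNA binding and transcription list were lower.

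Downstream of the receptors the lists were split in both directions. Of 27 receptor adaptors and regulators tested of 30, 5 were higher and 5 lower after knockdown, and 9 were higher and 7 lower with imatinib. These are 37.0% and 59.3% of the 27, where 23.9% and 41.7% of all genes were called. PTPN1, the phosphatase PTP1B that removes phosphate from INSR and IGF1R, averaged 67.3 CPM with siERRα, 44.9 CPM with imatinib and 54.3 CPM in siNC, and its groups did not overlap. PTPN1 rose after knockdown by a log2 fold change of 0.31 (adjusted p = 5.63e-04) and fell with imatinib by 0.27 on the log2 scale (adjusted p = 9.17e-04). CRKL, an SH2 adaptor, averaged 80.0 CPM with siERRα, 116 CPM with imatinib and 108 CPM in siNC, with −0.43 after knockdown (adjusted p = 7.79e-06). SOCS3, a feedback inhibitor of cytokine and insulin signaling, fell with imatinib by 0.70 on the log2 scale (adjusted p = 2.12e-07), whereas the adaptors SHC2 and DOK5 rose by log2 fold changes of 0.75 (adjusted p = 2.75e-06) and 0.63 (adjusted p = 2.42e-04).

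Of 37 PI3K, AKT and mTOR genes tested of 40, 7 were higher and 5 lower after knockdown, and 8 were higher and 11 lower with imatinib, 32.4% and 51.4% of the 37, against 23.9% and 41.7% of all genes. SESN3, a sestrin that restrains mTOR complex signaling, had 192, 209 and 188 CPM with siERRα, 138, 156 and 121 CPM with imatinib and 115, 105 and 117 CPM in siNC. It rose after knockdown by a log2 fold change of 0.81 (adjusted p = 3.27e-07) and with imatinib by 0.30 (adjusted p = 0.00386). PIK3IP1, an inhibitor of PI3K, rose after knockdown by 0.61 on the log2 scale (adjusted p = 2.00e-04), to 13.9 CPM against 9.13 CPM in siNC, and PIK3CG, a catalytic subunit of PI3K, fell by 0.59 (adjusted p = 0.00226), to 3.07 CPM against 4.62 CPM in siNC. DEPTOR, which binds and inhibits mTOR, averaged 4.94 CPM with siERRα, 16.3 CPM with imatinib and 4.95 CPM in siNC and rose with imatinib by a log2 fold change of 1.72 (adjusted p = 3.02e-10). DDIT4, a stress-induced inhibitor of mTOR complex signaling, went the other way with imatinib, with a log2 fold change of −1.01 (adjusted p = 1.36e-08) and 11.1 CPM against 22.4 CPM in siNC. EIF4EBP1, the translation repressor that mTOR phosphorylates, rose with imatinib by a log2 fold change of 0.50 (adjusted p = 3.37e-05). PHLPP1, a phosphatase of AKT, averaged 61.9 CPM with siERRα, 38.9 CPM with imatinib and 45.4 CPM in siNC, with log2 fold changes of 0.45 after knockdown (adjusted p = 2.60e-04) and −0.22 with imatinib (adjusted p = 0.0266).

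Of 29 genes listed as FOXO factors or FOXO targets 26 were tested, and being listed does not show that each is a target. After knockdown 7 were higher and 6 lower, where 11.4% of all genes were called higher and 12.6% lower. With imatinib 16 were higher and 6 lower, where 21.4% of all genes were called higher and 20.3% lower. The factors FOXO1, FOXO3, FOXO4 and FOXO6 were all called higher with imatinib, with log2 fold changes of 0.68, 0.59, 0.49 and 1.43. After knockdown FOXO1 was called lower (−0.46) and FOXO3 higher (0.32), while FOXO4 (0.29) and FOXO6 (−0.04) were not called. ERBB3, a receptor partner of the EGF receptor family and a FOXO target, had 5.60, 5.93 and 6.43 CPM with siERRα, 20.5, 18.8 and 18.3 CPM with imatinib and 9.06, 8.50 and 9.49 CPM in siNC. It rose with imatinib by a log2 fold change of 1.09 (adjusted p = 1.14e-08) and fell after knockdown by 0.60 on the log2 scale (adjusted p = 1.03e-04). TRIB1, a pseudokinase, had 72.0, 71.4 and 67.1 CPM with siERRα, 16.1, 15.7 and 15.8 CPM with imatinib and 47.6, 46.6 and 46.2 CPM in siNC, so that it rose after knockdown by a log2 fold change of 0.58 (adjusted p = 8.03e-07) and fell with imatinib by 1.56 on the log2 scale (adjusted p = 2.01e-12). TRIB2, its relative, averaged 184 CPM with siERRα, 102 CPM with imatinib and 162 CPM in siNC. GADD45A, a growth arrest gene, fell with imatinib by 1.36 on the log2 scale (adjusted p = 1.37e-09), and RBL2, the pocket protein p130, fell after knockdown by 0.51 (adjusted p = 1.36e-05).

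**Figure D5:**
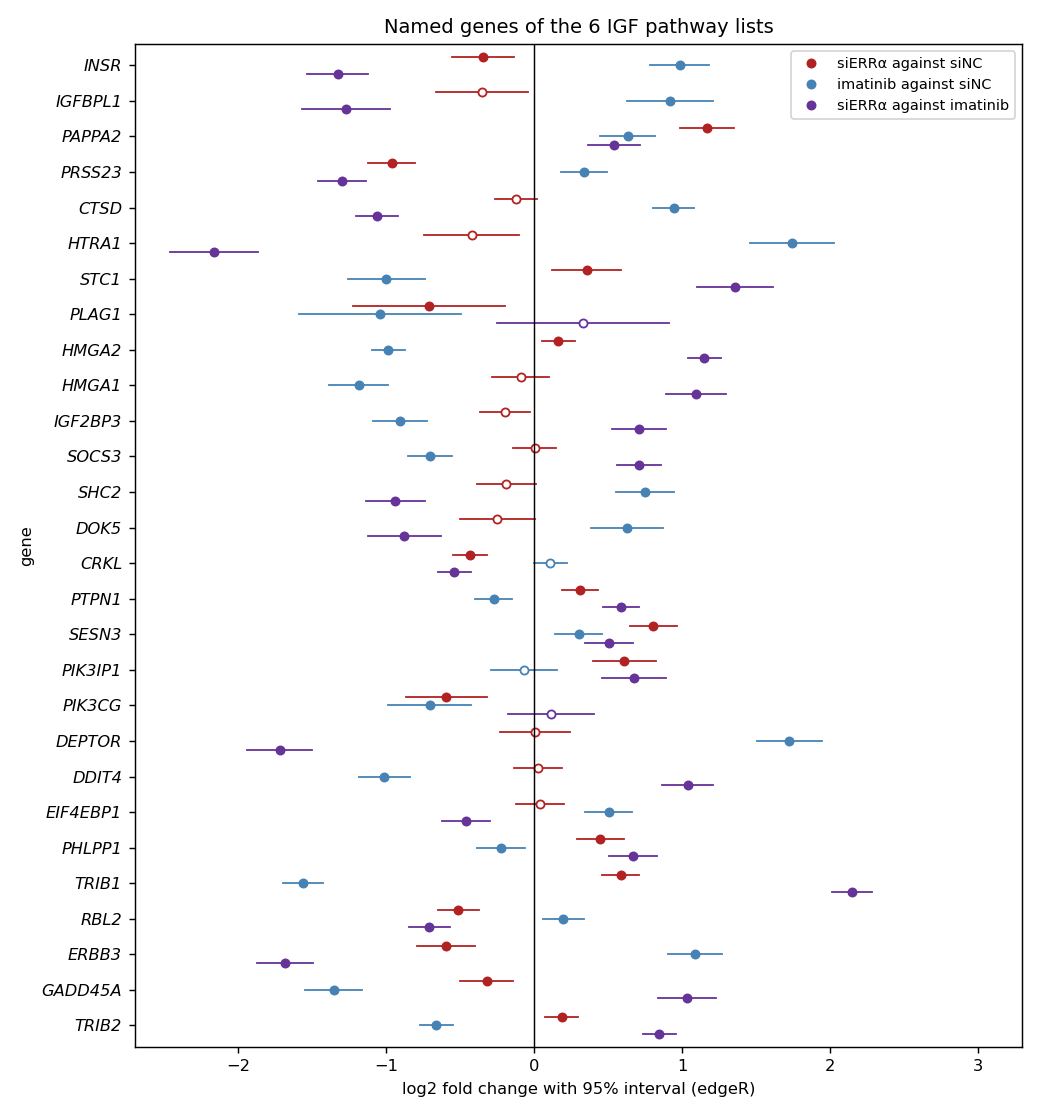
Log2 fold change (point) with its 95% interval (line) of 28 genes named by rule from the 6 pathway lists, in 3 comparisons, from edgeR. Filled points have an adjusted p under 0.05. INSR, ERBB3 and PRSS23 lie right of 0 with imatinib and left of 0 with siERRα, and TRIB1 lies the other way.

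Over the 6 lists together, 41 of 109 genes tested were called after knockdown (22 higher, 19 lower), 73 with imatinib (41 higher, 32 lower) and 69 between siERRα and imatinib (34 higher, 35 lower). These are 37.6%, 67.0% and 63.3% of the 109, where 23.9%, 41.7% and 52.2% of all genes were called. The median log2 fold change of the lists after knockdown and with imatinib was −0.13 and 0.24 for the 5 genes of the ligand, receptor and carrier list, both the values of the noncoding H19, −0.12 and 0.34 for proteases, −0.09 and −0.91 for IGF2 transcription and mRNA binding, 0.02 and −0.0044 for adaptors, 0.04 and 0.02 for PI3K, AKT and mTOR and −0.00080 and 0.31 for FOXO genes, where all genes had 0.0085 and 0.0023. The knockdown count moved with single libraries. It was 27 without siERRα library 1, 27 without siNC library 1 and 26 without siNC library 3. The count over all genes fell in these fits as well. It was 3208 of 17335, 3031 of 17337 and 2910 of 17323 in the same order, against 4064 of 16976 in the main fit.

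Sequence features of the members were read from reference annotation. The 7-base sequence ATGTTCT was picked earlier from the knockdown fold changes of these same libraries, so its counts here are a description. In GENCODE 44, the canonical 3' UTR of 2418 tested genes held it and that of 10322 did not. Of the genes with a copy 30.3% were lower after knockdown, and of those without 12.0% were, with median UTR lengths of 3237 and 1111 bases. With imatinib the shares called lower were 26.0% and 23.0%. IGFBP3 holds 2 copies in a UTR of 1605 bases, a length class in which 16.6% of UTRs hold any, and IRS1 and IRS2 hold 1 each, in length classes in which 44.1% and 35.6% do. The copies are shown because IGFBP3 and IRS1 were the members that fell by at least 0.5 on the log2 scale after knockdown. With imatinib, a different treatment, IRS1 fell by 0.50 on that scale (adjusted p = 3.03e-05), and a link between the 2 falls was not tested. Capitals mark the 7 bases, read 5′ to 3′ along the transcript (GRCh38), with both IGFBP3 sites in exon 5 at chr7:45913200-45913229 and chr7:45912725-45912754, and the IRS1 site in exon 2 at chr2:226735696-226735725, all on the minus strand.
IGFBP3 first site: tgtatctaagaATGTTCTagggcactctgg
IGFBP3 second site: gcagagaagatATGTTCTtgttaacattgt
IRS1 site: ggaggtatacaATGTTCTgttgtaaagagt
IGFBP2, IGFBP4 and IGFBP5, which were also lower after knockdown, hold no copy, in UTRs of 332, 1142 and 4646 bases. In their length classes 3.86%, 11.3% and 42.8% of UTRs hold any. The sequence of the siRNA is not given in the sources used here, and the part of these sites in the lower values was not tested.

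Promoters of the members, 250 bases before to 50 bases after the start, came from RefSeq (GRCh38.p14), with 10 entries for 8 of the members and none for IGF2 and IGFBP7. They were searched on both strands for the element of estrogen-related receptors TNAAGGTCA, its core AAGGTCA and the FOXO element GTAAACA. The core is part of the longer element. No member entry held the element or its core, which 0.951% and 3.92% of all 35116 promoters held. The FOXO element, held by 3.42% of all promoters, was found only for IGFBP6, 186 bases before its RefSeq start. All promoter starts here are those of RefSeq, and some differ from the GENCODE gene positions given above. By GENCODE the IGFBP6 gene starts further upstream, at 53097436, so that this site lies within the gene. A TATA sequence (TATANA on the strand of the gene, within 45 to 16 bases before the start) was held by 3.62% of all promoters and by those of IGFBP3 and IGFBP4, at 30 and 29 bases before the start. The 100 bases before the RefSeq start of the 3 binding protein genes that fell most after knockdown are printed with this sequence in capitals. They lie at chr7:45921273-45921372 (minus strand), chr17:40443350-40443449 (plus strand) and chr2:216695550-216695649 (minus strand). The IGFBP3 stretch lies within the GENCODE gene, which reaches to 45921874.
IGFBP3 promoter: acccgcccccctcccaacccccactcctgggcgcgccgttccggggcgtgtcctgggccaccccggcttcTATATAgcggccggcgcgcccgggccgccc
IGFBP4 promoter: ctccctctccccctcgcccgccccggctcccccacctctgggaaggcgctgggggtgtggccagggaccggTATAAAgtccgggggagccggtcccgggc
IGFBP5 promoter: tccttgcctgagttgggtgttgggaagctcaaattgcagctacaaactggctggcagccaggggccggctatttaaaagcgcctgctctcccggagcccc
The IGFBP5 stretch holds no match to the searched letters. It does hold the similar run tatttaaaa, which the letters TATANA do not cover, so a TATA-like sequence is not thereby absent. GC content over the 250 bases before the start was 76.0% for IGFBP3, 71.6% for IGFBP4 and 61.2% for IGFBP5, where the median of all promoters was 58.0%.

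Genes with the pattern most like each member were sought among 8867 protein-coding genes of at least 10 CPM, by the root mean square distance of log2 CPM, each gene centred on its own mean, over the 9 libraries. For IGFBP3 they were PRSS23 at a distance of 0.0853, MARCHF4 at 0.0897 and MOCS1 at 0.101, where IGFBP3 itself varied by 0.572 on the same scale. For IGFBP5 they were MYO1D (0.0810), VSTM4 (0.0835) and AUTS2 (0.0862), all with their highest mean with imatinib and their lowest with siERRα. IGFBP2 was nearest to TST (0.0412), PGAP6 (0.0507) and NXPH4 (0.0519), and IGFBP4 to MSC (0.0522), RAC2 (0.0598) and TRIR (0.0640). IRS1 was nearest to NUAK2 (0.0721), CCN1 (0.0843) and TMEM178A (0.0919), whose means were higher in siNC than in both treated groups. IGF2 was nearest to HDAC5 (0.0462), PRKACA (0.0484) and CNTFR (0.0522). IGF1R was nearest to STRN3, GTF2A1 and HOOK1, IGFBP6 to MRPL10, DMAC2 and ELP5, and IGFBP7 to GLTP, HNRNPF and PRPF31, members that varied by only 0.156, 0.0785 and 0.0614 themselves. These distances are descriptions over libraries that share depth and treatment.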

How the data were processed

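PolyA RNA of the 9 libraries was sequenced in bulk as read pairs. STAR 2.7.3a served the authors for alignment to GRCh38 and featureCounts 2.0.1 for counting (versions from the submitters' processing notes), and the deposited values are raw counts per gene symbol. For annotation release, strand and multi-mapping the settings were not given in the sources used here. Groups were formed by the labels of the deposit. The sample names number siNC libraries S1 to S3, siERRα libraries S4 to S6 and imatinib libraries S16 to S18. What these numbers stand for is not stated, and a difference in handling between groups could not be told apart from the treatment. Whether the 3 of a group were separate cultures is not stated, and p-values cover only the spread among the 3 libraries, which may be technical, and intervals and counts near 0 carry counting error beside it. Libraries of a group differed by more than sampling noise (chi-square per degree of freedom 3.77 to 16.5).

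TMM normalization followed a filter by filterByExpr (minimum count 10, minimum total 15). Testing used edgeR 4.0.16 under R 4.3.3 with glmQLFit (robust) and glmQLFTest, its quasi-likelihood test. One fit held all 9 libraries, and p-values were adjusted by Benjamini-Hochberg over 16976 genes. A gene was called at an adjusted p under 0.05. Alternatives were DESeq2 size factors in edgeR, library totals without TMM, the DESeq2 1.42.0 Wald test, limma-voom (limma 3.58.1), no filter, at least 10 counts in every library, the 6 libraries compared alone, counts thinned to 37527236, the replicate number as a block, fold thresholds of 0.5 and 1, and fits that dropped 1 library at a time.

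The members and lists were chosen with earlier results of these data known. Named by rule were all members, ESRRA, IGF1, INSR, IGF2R and IGFBP1, up to 3 genes with the smallest p per pathway list and comparison (adjusted p under 0.05, absolute log2 fold change of at least 0.5, mean of at least 1 CPM), and, for each member that averaged at least 1 CPM, the 3 protein-coding genes of at least 10 CPM nearest to it in pattern. H19, IGF2-AS, INS-IGF2, PAPPA, FOXO1, FOXO3, FOXO4, FOXO6, KIT and the markers printed were named beside this rule. Log2 CPM for patterns used a prior count of 2. Gene positions, exon lengths and 3' UTRs of at least 50 bases came from GENCODE 44, joined by symbol. UTRs of like length had 80% to 125% of a member's length.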

Additional observations from a re-analysis of the deposited data

How the results depend on the processing

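Of 486 alternative values for the log2 fold changes of single members, 470 kept their direction and their side of the threshold, 4 lost the call and 12 changed sign, none of the 12 being called in the main fit or the alternative. Calls were lost by IGFBP2 (siERRα against siNC) and IGFBP3 (imatinib against siNC), in each case with the values given in the report. With library totals as scaling, the imatinib log2 fold changes of IGFBP4 and IGFBP7 were −0.0055 and −0.033, and that of IRS1 for siERRα against imatinib was 0.010. For IGFBP6 (siERRα against imatinib) it was −0.00095 with at least 10 counts in every library and −0.0024 with thinned counts. With each library left out in turn, the ranges were −0.023 to 0.14 (IGFBP4) and −0.0068 to 0.070 (IGFBP7) for imatinib against siNC, and −0.028 to 0.054 (IGFBP6) and −0.12 to 0.024 (IRS1) for siERRα against imatinib. The cause was not tested. The count of members called was 2, 2 and 3 when a log2 change of at least 0.5 in size was asked for and 1, 0 and 2 when it was 1, in the order siERRα against siNC, imatinib against siNC and siERRα against imatinib, fewer by construction. At the threshold of 1 imatinib had 0 members by edgeR, against 5 by adjusted p alone. The share of all genes that reached this threshold is not given here. Leaving out each library in turn gave 26 to 46 pathway genes called after knockdown, where 2910 to 4401 of all genes were called. The replicate block left 5 members called in each comparison and gave 39, 69 and 68 pathway genes. With this block 3652, 6764 and 8612 of all 16976 genes were called. Library numbers were not treated as pairs, since same-numbered libraries correlated by −0.0996 to 0.147 in their deviations from group means, over 0.1 in 1 of 9 pairs.

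At these depths precision is limited for IRS2 and IGF1R, with 3 to 15 and 60 to 120 counts per library. Per-kb levels depend on annotated exon length. One cell line at 48 h was measured, as RNA, and not protein or secreted IGF.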
